A study of Rattus norvegicus with 18 samples.

Results

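The transcription factor genes that set and keep hepatocyte identity were followed in rat liver by RNA-Seq. They comprised 9 genes, Hnf4a, Foxa1, Foxa2, Foxa3, Onecut1, Prox1, Nr5a2, Cebpa and Cebpb, picked by symbol from the 32623 genes of the count tables. All 9 passed the filter on low counts, which kept 12904 genes for testing. Liver RNA came from 18 male Wistar rats, 6 in each of 3 groups, with 1 library per rat. Control rats received standard chow and normal water for 12 weeks. NASH rats inhaled CCl4 and drank phenobarbital for 6 weeks and then ate a high-fat, high-cholesterol diet (HFCD) for 4 weeks, 10 weeks in all. NASH-CH rats, the group with cirrhosis, were exposed to CCl4 and phenobarbital during all 24 weeks and ate the HFCD for the last 16 weeks. The groups therefore differed in agents, in duration and in whether CCl4 and phenobarbital were still given at the end, and these factors cannot be told apart here.

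Hepatocyte identity rests on a network of transcription factors that bind together at liver enhancers and promoters and also sustain each other's genes. Hnf4a, a nuclear receptor, is its best known hub, the Foxa proteins are forkhead factors able to open closed chromatin, and Onecut1 and Prox1 act early in liver development and are kept in the adult organ. Nr5a2 is a nuclear receptor of bile acid and cholesterol genes, Cebpa drives metabolic genes of the resting hepatocyte, and Cebpb is a related factor of acute phase and regeneration genes.

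Promoter sequence is shown for the pair of C/EBP genes, of which 1 passed the test for a difference and the other did not. It is also shown for Hnf4a, whose gene-level counts add up transcripts from separate start sites. Each stretch holds the 250 bases before a RefSeq start site, written 5′ to 3′ on the transcribed strand (GRCr8). RefSeq promoters were matched for 6 of the 9 genes, in 7 windows, and Foxa1, Onecut1 and Prox1 had no match. The Cebpb promoter lies at chr3:176816755-176817004 (+ strand), the Cebpa promoter at chr1:96896334-96896583 (+ strand), and the Hnf4a windows at chr3:172605970-172606219 and chr3:172641586-172641835 (+ strand). Capitals mark TATAAA on the strand shown and TGACG on either strand in Cebpb, TATAAA in Cebpa and ATCAAT in the upstream Hnf4a window, and nothing is marked in the downstream Hnf4a window.
Cebpb: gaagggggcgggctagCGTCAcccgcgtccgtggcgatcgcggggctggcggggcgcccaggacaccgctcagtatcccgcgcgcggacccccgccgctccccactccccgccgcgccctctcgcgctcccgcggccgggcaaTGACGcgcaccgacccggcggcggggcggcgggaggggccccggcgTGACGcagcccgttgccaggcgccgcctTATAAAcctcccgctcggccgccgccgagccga
Cebpa: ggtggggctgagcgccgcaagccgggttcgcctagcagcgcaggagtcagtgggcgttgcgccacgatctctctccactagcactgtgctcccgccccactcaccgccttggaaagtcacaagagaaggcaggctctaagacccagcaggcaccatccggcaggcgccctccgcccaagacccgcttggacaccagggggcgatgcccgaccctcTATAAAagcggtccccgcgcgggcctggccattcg
Hnf4a, upstream start: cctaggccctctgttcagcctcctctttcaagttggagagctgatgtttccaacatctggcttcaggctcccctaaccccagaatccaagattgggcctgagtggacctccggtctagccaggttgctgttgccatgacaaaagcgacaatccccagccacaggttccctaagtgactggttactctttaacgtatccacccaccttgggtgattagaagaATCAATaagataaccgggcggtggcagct
Hnf4a, downstream start: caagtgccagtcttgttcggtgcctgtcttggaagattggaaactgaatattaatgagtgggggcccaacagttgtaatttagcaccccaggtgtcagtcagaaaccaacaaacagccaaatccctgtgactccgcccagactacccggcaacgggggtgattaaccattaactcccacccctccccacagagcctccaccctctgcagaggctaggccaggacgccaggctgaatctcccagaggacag
Both C/EBP promoters held TATAAA close to the start site, its first base at position -33 in Cebpb and -35 in Cebpa, a motif present in 8.06% of 33469 rat promoters of this length. The Cebpb window also held TGACG, the core of the cyclic AMP response element, at 3 places (first bases at -234, -107 and -61), whereas the Cebpa window held none and 18.2% of all promoters held at least 1. Cebpb had 80.0% G and C bases, a share reached or exceeded by 1.10% of promoters (median 51.2%). The upstream Hnf4a window held ATCAAT, letters of Onecut sites, at -29, present on either strand in 7.10% of promoters. These letter matches are descriptions of the windows, and the motifs were chosen after the sequences had been seen.

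Library totals were 19498534 to 27174015 counts in control rats, 20827770 to 29491947 in NASH rats and 44680344 to 60117822 in NASH-CH rats. Levels are given as CPM, counts scaled by TMM to a common library size over the tested genes, which is not a value per gene length, so levels of different genes are not ranked. Differences are log2 fold changes from limma-voom with Benjamini-Hochberg adjustment over all tested genes, called at an adjusted p below 0.05. TMM centred the comparisons (median log2 fold change of all genes 0.0072, 0.013 and 0.0068 for NASH vs. control, NASH-CH vs. control and NASH-CH vs. NASH), whereas library size alone moved these medians to 0.23, 0.27 and 0.040. The share of called genes that were higher was 50.6%, 49.4% and 43.2% with TMM and 90.8%, 85.0% and 32.4% with library size alone. NASH-CH rats 5 and 6 had the highest TMM factors of all libraries, 1.28 and 1.22, and NASH-CH rat 5 had the lowest level of its group for 7 of the 9 genes.

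Of the 9 factors, 1 was called in any comparison. Cebpb fell in NASH-CH liver compared to both control and NASH liver, while no factor passed the test between NASH and control liver. Hnf4a, the hub of the network, had group medians of 371 to 404 CPM and passed the test in no comparison. In NASH vs. control, 0 of 9 genes were called against 3.12% of all tested genes, also with edgeR and DESeq2, and 0 of 9 had an unadjusted p below 0.05. In NASH-CH vs. control, 1 of 9 was called (17.0% of all tested genes), and it was lower (8.60% of all tested genes). In NASH-CH vs. NASH, 1 of 9 was called (4.20% of all tested genes), again lower (2.39%). The comparisons of NASH and of NASH-CH with control share the control rats. The median log2 fold change of the 9 genes was 0.16, -0.082 and -0.48 in NASH vs. control, NASH-CH vs. control and NASH-CH vs. NASH. In bulk liver, fewer hepatocytes and less of an RNA per hepatocyte cannot be told apart.

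**Figure D1:**
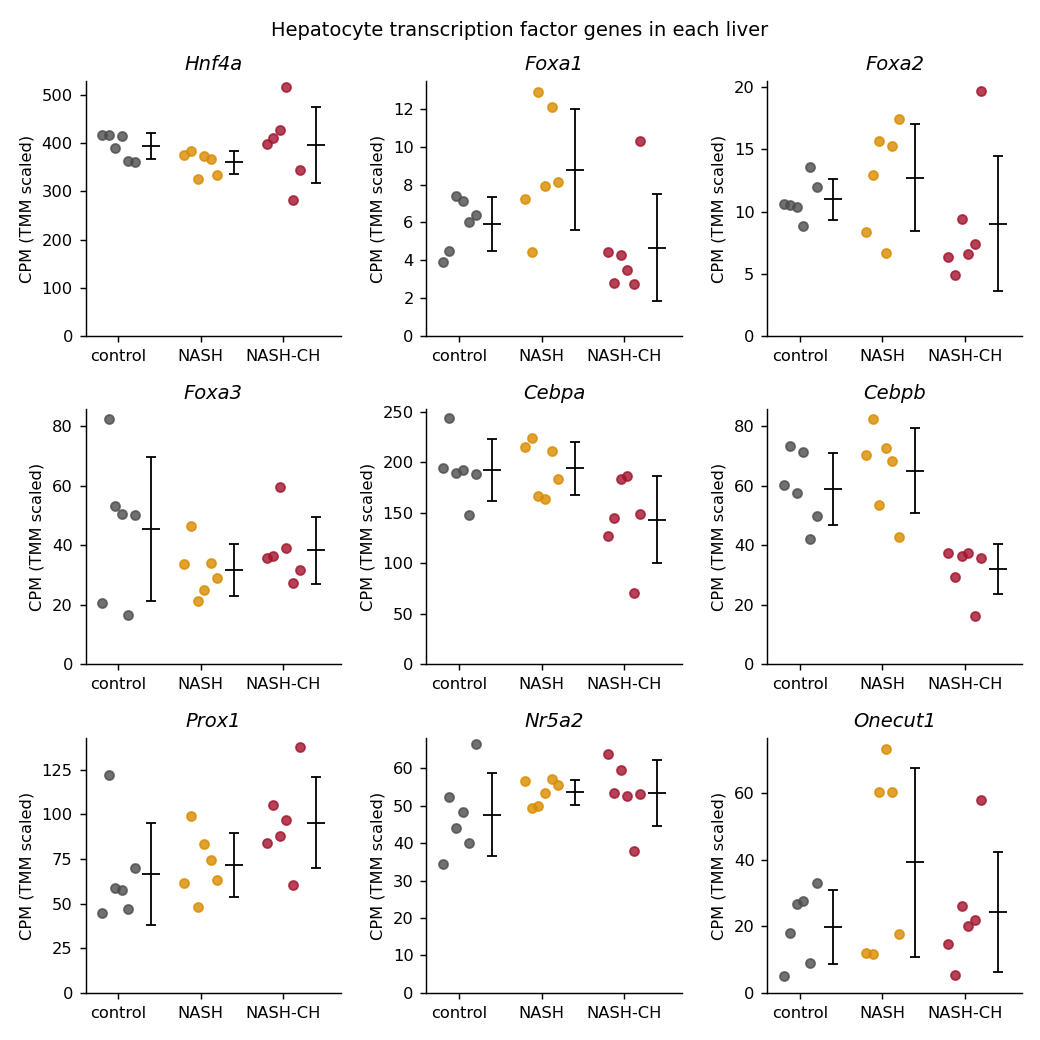
Level of each factor gene in each liver (CPM after TMM scaling, linear axes from 0). Points are rats in the order 1 to 6 within each group, and the bar beside them is the mean ± SD of 6 rats; the 6 NASH-CH livers lie between 16.2 and 37.5 CPM for Cebpb, below every control and NASH liver.

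Hnf4a ranged from 361 to 418 CPM in control rats (median 403), from 326 to 383 in NASH rats (median 371) and from 281 to 517 in NASH-CH rats (median 404). The groups overlapped throughout, and the NASH-CH livers spread most widely, with a standard deviation of 79.4 CPM compared to 26.8 in controls. The log2 fold change was -0.13 ± 0.11 (SE) in NASH vs. control (95% interval -0.36 to 0.10, adjusted p = 0.540, limma-voom) and -0.0083 in NASH-CH vs. control (interval -0.25 to 0.24, adjusted p = 0.969). NASH-CH vs. NASH gave 0.12 (interval -0.12 to 0.37). The sign of the first 2 values depended on scaling. With library size alone Hnf4a was 0.096 and 0.25 above control, where the median of all genes stood at 0.23 and 0.27. The sign in NASH-CH vs. control also changed with the test used and with single rats left out.

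Among the forkhead genes, Foxa1 had few counts, 63 to 559 per library. Its level was 3.93 to 7.42 CPM in control rats (median 6.23), 4.41 to 12.9 in NASH rats (median 8.04) and 2.73 to 10.3 in NASH-CH rats (median 3.89). In NASH-CH, 5 livers lay at 4.42 CPM or below and rat 6 alone at 10.3. The group overlapped both others also without rat 6, since rat 1 (4.42) lay above the lowest control (3.93) and the lowest NASH liver (4.41). NASH-CH vs. NASH gave a log2 fold change of -1.01 ± 0.29 (interval -1.62 to -0.40, fold 0.497), which narrowly missed the threshold (adjusted p = 0.0584, limma-voom) and passed in 6 of 30 alternatives, among them without NASH-CH rat 6 (-1.28, adjusted p = 0.0038), without NASH rat 2 (-1.18, adjusted p = 0.0224) and with DESeq2 (-0.92, adjusted p = 0.0411). The differences from control were 0.52 ± 0.32 in NASH and -0.49 ± 0.31 in NASH-CH, with adjusted p-values of 0.354 and 0.302.

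Foxa2, which in the adult liver takes part in the fasting response, showed the same single high rat. It ranged from 8.80 to 13.6 CPM in control (median 10.6), 6.67 to 17.4 in NASH (median 14.1) and 4.92 to 19.7 in NASH-CH livers (median 6.96). NASH-CH rat 6 held the 19.7, above every other liver, while the remaining 5 NASH-CH rats reached at most 9.37. The log2 fold change in NASH-CH vs. NASH was -0.58 ± 0.28 (interval -1.17 to 0.0086, adjusted p = 0.293, limma-voom), and without NASH-CH rat 6 it was -0.84 (adjusted p = 0.0380). NASH-CH vs. control gave -0.42 and NASH vs. control 0.16, with adjusted p-values of 0.329 and 0.799.

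Foxa3 belongs to the same family and binds many metabolic genes of the adult hepatocyte. It varied 4.92-fold among control rats alone, from 16.8 to 82.4 CPM (median 50.5), compared to 21.5 to 46.5 in NASH (median 31.4) and 27.4 to 59.8 in NASH-CH livers (median 36.1). The controls therefore enclosed both other groups. The log2 fold changes were -0.36 ± 0.31 (NASH vs. control), -0.082 ± 0.33 (NASH-CH vs. control) and 0.28 ± 0.33 (NASH-CH vs. NASH), none of which passed.

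Onecut1, a cut homeodomain factor that also acts in bile duct development, was the most variable gene of the set. It spanned 5.17 to 33.0 CPM in control (median 22.3), 11.7 to 73.1 in NASH (median 38.9) and 5.35 to 57.8 in NASH-CH livers (median 21.0). NASH livers split into 3 rats at 60.3 to 73.1 CPM and 3 at 11.7 to 17.5, and in NASH-CH rat 6 again held the top value. With standard errors of 0.59 to 0.61, log2 fold changes of 0.80, 0.18 and -0.62 (in the same order of comparisons) could not be separated from 0. The 95% interval for NASH vs. control ran from -0.47 to 2.06.

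Prox1, a homeobox factor of the hepatocyte lineage that also marks lymphatic endothelium, was the only factor with a higher level in NASH-CH at an unadjusted p below 0.05. It ranged from 44.7 to 122 CPM in control (median 58.2), 48.2 to 98.8 in NASH (median 68.8) and 60.4 to 138 in NASH-CH livers (median 92.2). In control rats 5 livers lay at 70.0 CPM or below and rat 2 at 122, above all NASH-CH livers but 1. NASH-CH vs. control gave a log2 fold change of 0.58 ± 0.24 (interval 0.079 to 1.08), not past the threshold (adjusted p = 0.104, limma-voom), and without control rat 2 it was 0.77 (adjusted p = 0.0137). It passed in 4 of 30 alternatives, among them sample quality weights (0.64, adjusted p = 0.0486) and library size alone (0.82, adjusted p = 0.0321). The summed level of 9 endothelial marker genes was 214 to 312 CPM in control, 285 to 330 in NASH and 181 to 327 in NASH-CH livers, overlapping between control and NASH-CH, and its part in the Prox1 values was not tested.

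Nr5a2, also known as LRH-1, differed little between the group medians. It lay at 34.5 to 66.5 CPM in control (median 46.1), 49.3 to 57.0 in NASH (median 54.4) and 37.8 to 63.9 in NASH-CH livers (median 53.3). All groups overlapped, and the NASH rats were closest together, with a highest to lowest ratio of 1.16. The log2 fold changes were 0.21 ± 0.13 (NASH vs. control), 0.19 ± 0.14 (NASH-CH vs. control) and -0.014 ± 0.14 (NASH-CH vs. NASH), and the intervals reached 0.49, 0.48 and 0.28 at their upper ends.

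Cebpa ranged from 148 to 244 CPM in control (median 191), 163 to 224 in NASH (median 197) and 70.4 to 186 in NASH-CH livers (median 147). All 6 NASH-CH livers lay below the control mean of 193, but they overlapped the control range. The log2 fold change was -0.46 ± 0.18 in NASH-CH vs. control (interval -0.85 to -0.076, fold 0.726) and -0.48 ± 0.19 in NASH-CH vs. NASH (interval -0.87 to -0.090). Unadjusted p-values of 0.0216 and 0.0185 became 0.0930 and 0.171 after adjustment over all genes (limma-voom), so neither difference was called. NASH and control differed by 0.018 (interval -0.36 to 0.40).

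For Cebpb, the relative of Cebpa, control livers held 42.1 to 73.3 CPM (median 58.8), NASH livers 42.9 to 82.2 (median 69.2) and NASH-CH livers 16.2 to 37.5 (median 36.0). Every NASH-CH liver was thus below every control and every NASH liver, a separation seen for 7.11% of all tested genes in NASH-CH vs. control and for 3.46% in NASH-CH vs. NASH. In NASH-CH, 5 livers were tightly grouped at 29.4 to 37.5 CPM and rat 5 lay at 16.2, while control and NASH livers shared 1 range.

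Compared to control, Cebpb fell by 0.89 ± 0.20 on the log2 scale in NASH-CH livers (interval -1.31 to -0.47, fold 0.539, adjusted p = 0.0058, limma-voom). Compared to NASH, it fell by 1.03 ± 0.20 (interval -1.46 to -0.61, fold 0.489, adjusted p = 0.0048), which places it at rank 190 of the 12904 tested genes by p-value. NASH vs. control gave 0.14 ± 0.20 (interval -0.28 to 0.56, adjusted p = 0.731). Both Cebpb calls were made in all 30 alternative fits of each comparison, with log2 fold changes of -0.99 to -0.65 against control and -1.14 to -0.86 against NASH. The value nearest 0 in the comparison with control came from scaling by library size alone (adjusted p = 0.0252).

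Other measures also differed between these livers. The share of counts on 7SK and SRP RNA genes was 15.2% to 21.0% in control, 13.9% to 16.2% in NASH and 10.5% to 12.6% in NASH-CH libraries, so that NASH-CH stood below both groups for this share as well as for Cebpb. With those genes removed the log2 fold change of Cebpb was -0.90 against control and -1.04 against NASH. With NASH-CH counts thinned to the control depth it was -0.88 and -1.03, and without NASH-CH rats 5 and 6 it was -0.73 and -0.86. Cebpb is also expressed by macrophages. The 8 macrophage markers summed to 269 to 489 CPM in control, 189 to 279 in NASH and 161 to 251 in NASH-CH livers. None of them was at 0 throughout a group. In NASH-CH vs. control 6 of 8 (75.0%) were called lower, compared to 8.60% of all tested genes. In NASH-CH vs. NASH 0 of 8 passed, and their median log2 fold change was -0.11. The count of 6 was 3 without control rat 3, control rat 5 or NASH-CH rat 6, 3 with sample quality weights and 2 with library size alone. These are RNA levels and not cell counts. In stained sections the authors found more macrophages positive for CD68 or CD163 in NASH-CH than in control livers. The part of macrophages in the Cebpb values was not tested.

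**Figure D2:**
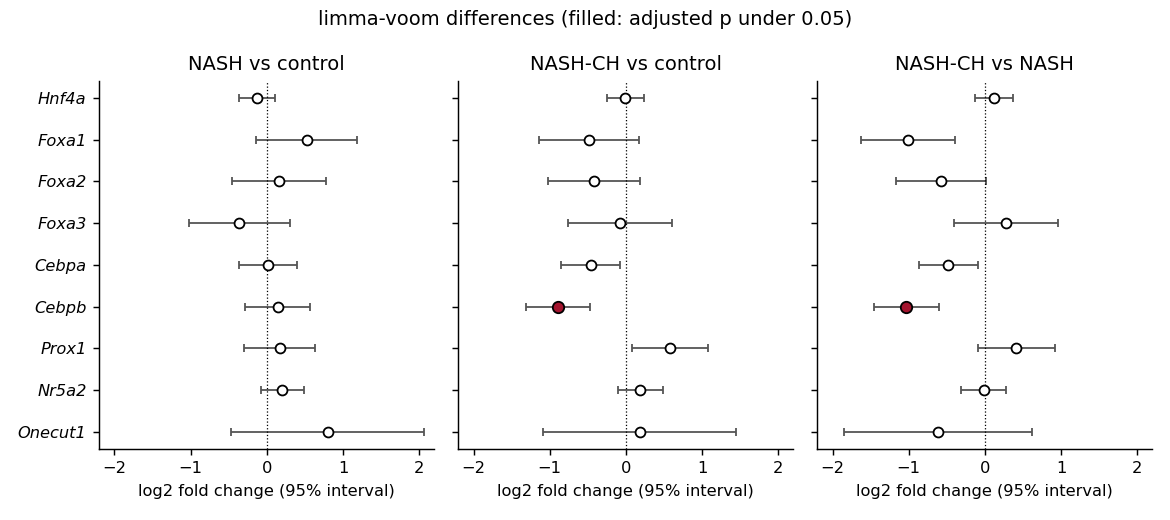
Log2 fold changes of the 9 factors with 95% intervals in the 3 comparisons (limma-voom, 6 rats per group, dotted line at 0). Only the Cebpb points of NASH-CH vs. control (-0.89) and NASH-CH vs. NASH (-1.03) are filled, meaning an adjusted p below 0.05.

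The Cebpb to Cebpa ratio was examined because counts of both genes come from the same library and their ratio needs no scaling. It uses the same counts as the fold changes of both genes above and is not independent of them. Cebpa and Cebpb bind the same DNA motif, and their balance is known to shift between resting and regenerating liver. Counts of Cebpb per count of Cebpa were 0.264 to 0.370 in control (median 0.302), 0.234 to 0.445 in NASH (median 0.324) and 0.198 to 0.296 in NASH-CH livers (median 0.217). In NASH-CH, 5 of 6 rats lay below all controls and 4 of 6 below all NASH rats, with rat 1 at 0.296 the exception in both cases and rat 6 (0.240) above the lowest NASH rat.

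On the log2 scale the ratio was -1.72 ± 0.16 (SD, n = 6) in control livers, compared to -1.60 ± 0.30 for NASH and -2.15 ± 0.22 for NASH-CH livers. The difference was -0.43 ± 0.11 (SE) in NASH-CH vs. control and -0.55 ± 0.15 in NASH-CH vs. NASH, each with p = 0.00649 in a two-sided exact permutation test (0.00974 after adjustment over the 3 comparisons). All 6 NASH-CH rats were below the mean of the other group in both cases. NASH vs. control differed by 0.12 ± 0.14 (exact permutation p = 0.435).

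**Figure D3:**
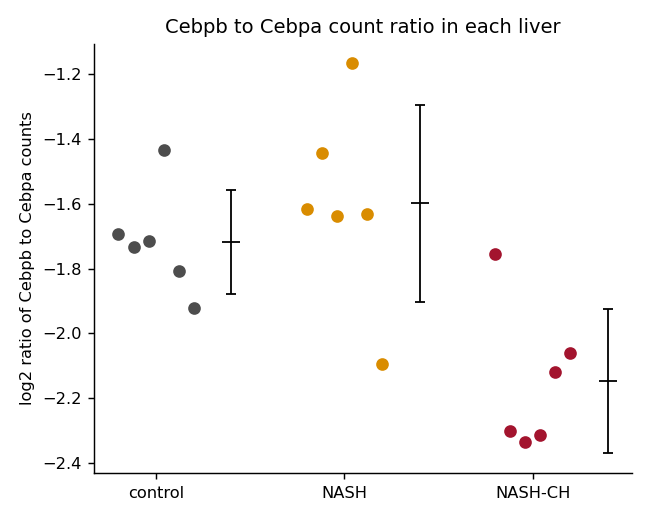
Log2 ratio of Cebpb to Cebpa counts in each liver, with the mean ± SD of 6 rats beside the points. NASH-CH livers centre on -2.15, compared to -1.72 in control and -1.60 in NASH livers, and 1 NASH-CH liver reaches into the control range.

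Rats of 1 group also differed together. After removal of each group's mean, Hnf4a correlated over the 18 livers with Cebpa (r = 0.82, rho = 0.75) and with Cebpb (r = 0.77, rho = 0.70). Adjusted over 8 relations, permutation p-values were 0.0051 and 0.0093 for Cebpa (r and rho) and 0.0032 and 0.011 for Cebpb. Without NASH-CH rats 4 and 5, the rats farthest out in Hnf4a, r was 0.66 for Cebpb (adjusted permutation p = 0.0342) and 0.55 for Cebpa (adjusted permutation p = 0.0668), which no longer passed the threshold. Within control, NASH and NASH-CH, r was 0.91, 0.90 and 0.78 for Cebpb and 0.69, 0.60 and 0.87 for Cebpa (6 rats each).

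The other 6 factors gave r of -0.38 to 0.37 with Hnf4a and rho of -0.47 to 0.54, and none passed after adjustment. Foxa1 and Foxa2 were negative (-0.21 and -0.38) and became -0.65 each without NASH-CH rats 4 and 5 (adjusted permutation p = 0.0417 each). Foxa3 (0.37) and Prox1 (0.34) reached 0.60 and 0.67 with library size alone and then passed (adjusted permutation p = 0.0339 and 0.0214). All points share their library, its depth and its scaling factor, and NASH-CH rat 5 combines the lowest Hnf4a level (281 CPM), the lowest levels of both C/EBP genes and the highest TMM factor.

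**Figure D4:**
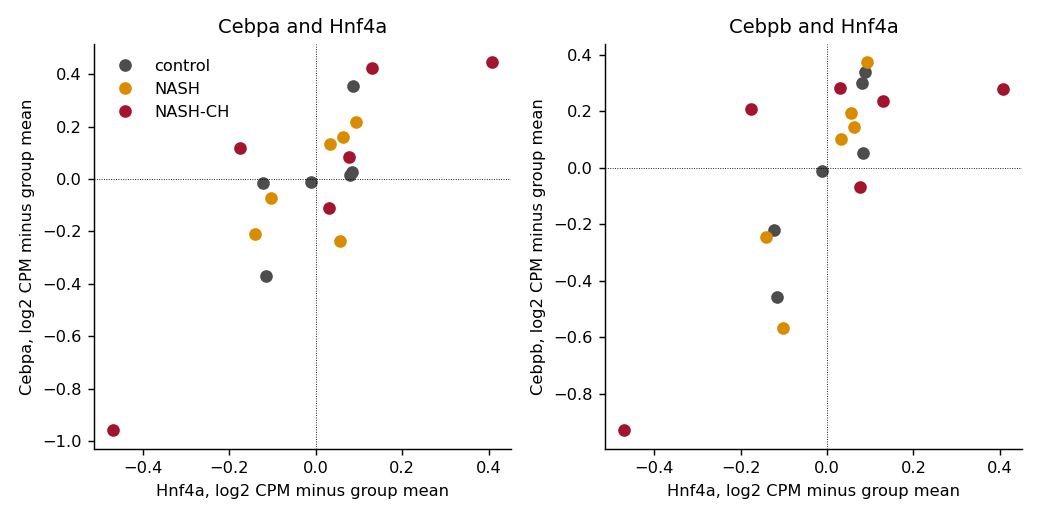
Deviation of log2 CPM from the group mean for Cebpa (left) and Cebpb (right) against that of Hnf4a, 1 point per liver coloured by group, dotted lines at 0. Livers with more Hnf4a than their group's mean tend to have more of both C/EBP genes (r = 0.82 and 0.77), with NASH-CH rat 5 at the lower left in both panels.

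The genes whose log2 CPM followed each factor most closely over the 18 livers were found among 5159 other genes with a mean of at least 10 CPM, and these correlations are descriptions that include the differences between groups. Foxa1 was closest to Hhex, a homeobox factor of early liver development (r = 0.92), to Plekhf1 (0.90) and to Gata4, a zinc finger factor of the same developmental stage (0.83). Foxa2 was closest to Cish (0.84), Gata4 (0.82) and Sowahb (0.79). Foxa1 and Foxa2 thus shared Gata4 among their 3 nearest genes, whereas Foxa3 did not. NASH-CH rat 6 held the highest level of its group for both Foxa1 and Foxa2, and these correlations were not repeated without it. Cebpb was closest to Irf2bp2 (0.88), Ociad1 (0.81) and a gene annotated as Y_RNA (0.81), and Cebpa to Ecm1 (0.84), Nudt19 (0.84) and Gch1 (0.84). Hnf4a was closest to Pdhb, a subunit of pyruvate dehydrogenase (0.81), Slc25a47 (0.81) and Eprs (0.79). For Prox1 the nearest gene was Jarid2 (0.92), followed by Sos1 (0.88) and Tnfrsf1a (0.87), and for Nr5a2 it was Il1r1 (0.86), followed by Adgrl2 (0.84) and Ddi2 (0.83). Foxa3 was nearest to Spty2d1 (0.92), Epha2 (0.86) and Erf (0.85), and Onecut1 to Ammecr1l (0.91), Hs3st3b1 (0.86) and Akirin2 (0.85).

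Of 26 other hepatic transcription factor genes, 4 rose and 0 fell in NASH, 3 rose and 3 fell in NASH-CH compared to control, and 1 fell in NASH-CH vs. NASH (median log2 fold change 0.23, -0.043 and -0.15). These were 15.4%, 23.1% and 3.85% of the list, compared to 3.12%, 17.0% and 4.20% of all tested genes. The NASH count was 0 to 5 with 1 rat left out, and 0 without control rat 1, control rat 3 or NASH rat 3. Ppara, the nuclear receptor of fatty acid oxidation, rose in both models (0.91 ± 0.22, adjusted p = 0.0308, and 0.88 ± 0.23, adjusted p = 0.0132, limma-voom), and so did Zhx2, a repressor of fetal liver genes after birth (0.54 and 0.71). Nfia (0.80) and Nfib (0.58) also rose in NASH. Nr1i3, the phenobarbital-responsive receptor CAR, fell in NASH-CH by 0.87 against control and by 1.51 ± 0.25 against NASH (adjusted p = 9.0e-04), and Atf5, a bZIP factor, fell by 0.65 against control. With 1 rat left out, the NASH calls were lost in 9 of 18 fits for Ppara, 3 for Zhx2, 4 for Nfia and 13 for Nfib, and in NASH-CH vs. control in 5 of 18 for Nr1i3 and 0 of 18 for Ppara, Zhx2 and Atf5. The Nr1i3 call against NASH was lost in 0 of 18.

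Genes known as targets of the factors were mostly not called. Of 24 Hnf4a targets, 1 fell in NASH and 4 fell in NASH-CH compared to control, none rose, and 0 passed in NASH-CH vs. NASH (median log2 fold change -0.14, -0.22 and -0.11). The share of 4.17% in NASH lies near the 3.12% of all tested genes called in either direction. In NASH-CH 16.7% were called, all of them lower. Of all tested genes, 17.0% were called there in either direction and 8.60% were called lower. In NASH-CH the 4 were Apoa4 (-1.25 ± 0.30), Fabp1, the liver fatty acid binding protein (-0.91 ± 0.26), Ttr, the thyroid hormone carrier transthyretin (-0.76 ± 0.20), and Apoa1, the main protein of HDL (-0.66 ± 0.16), with adjusted p-values of 0.0096 to 0.023 (limma-voom). Apoa1 was also the gene that fell in NASH (-0.82 ± 0.16, adjusted p = 0.0110). These calls were lost in 0 of 18 fits with 1 rat left out, although both Apoa1 calls were lost with library size alone (-0.59 in NASH and -0.39 in NASH-CH), the Fabp1 call with the groups fitted alone (-0.91, adjusted p = 0.0593) and the Ttr call without NASH-CH rats 5 and 6 (-0.56, adjusted p = 0.0747).

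Of 18 C/EBP targets, 3 rose and 2 fell in NASH-CH compared to control, and 0 passed in the other comparisons (medians 0.072, 0.0054 and 0.13). The 5 called were 27.8% of the list, compared to 17.0% of all tested genes. Lcn2, the acute phase protein lipocalin 2, rose by 4.66 ± 1.29 with 55.7 ± 54.8 CPM (SD, n = 6) in NASH-CH and 1.56 ± 0.53 in control livers (adjusted p = 0.0195, limma-voom). Il1rn, the interleukin 1 receptor antagonist (1.07), also rose, as did Crp, named after its values were seen (0.60). Cyp2d4 (-0.79) and Alb (-0.61), the albumin gene, fell. The Il1rn call was lost in 13 of 18 fits with 1 rat left out and the Alb call in 3, compared to 0 of 18 for Lcn2 and Cyp2d4.

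Of 14 Foxa and Onecut1 targets, 2 fell in NASH-CH compared to control, Ttr and Alb, which also stand in the lists above, and 0 passed in the other comparisons (medians 0.015, 0.085 and 0.083). Those 2 are 14.3% of the list, compared to 17.0% of all tested genes called in either direction and 8.60% called lower. Of 10 Nr5a2 targets, Apoa1 fell in both models. Abcc3, a basolateral exporter of bile acids, rose in NASH-CH (2.95 ± 0.98, adjusted p = 0.0455, limma-voom). The Abcc3 call was lost in 10 of 18 fits with 1 rat left out. The Nr5a2 targets called were 10.0% of the list in NASH and 20.0% in NASH-CH, compared to 3.12% and 17.0% of all tested genes. Of 12 fetal liver genes, 10 were in the tables and 5 were high enough to test. The 1 called, in NASH-CH against control and against NASH, was 20.0% of those 5, compared to 17.0% and 4.20% of all tested genes. Gpc3, an oncofetal proteoglycan, rose in NASH-CH by 2.16 against control and by 1.93 against NASH, from 0.620 ± 0.14 CPM in control and 0.734 ± 0.18 in NASH to 3.12 ± 1.78 in NASH-CH livers (SD, n = 6 each), and the call against NASH was lost without NASH rat 6 (1 of 18 fits).

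**Figure D5:**
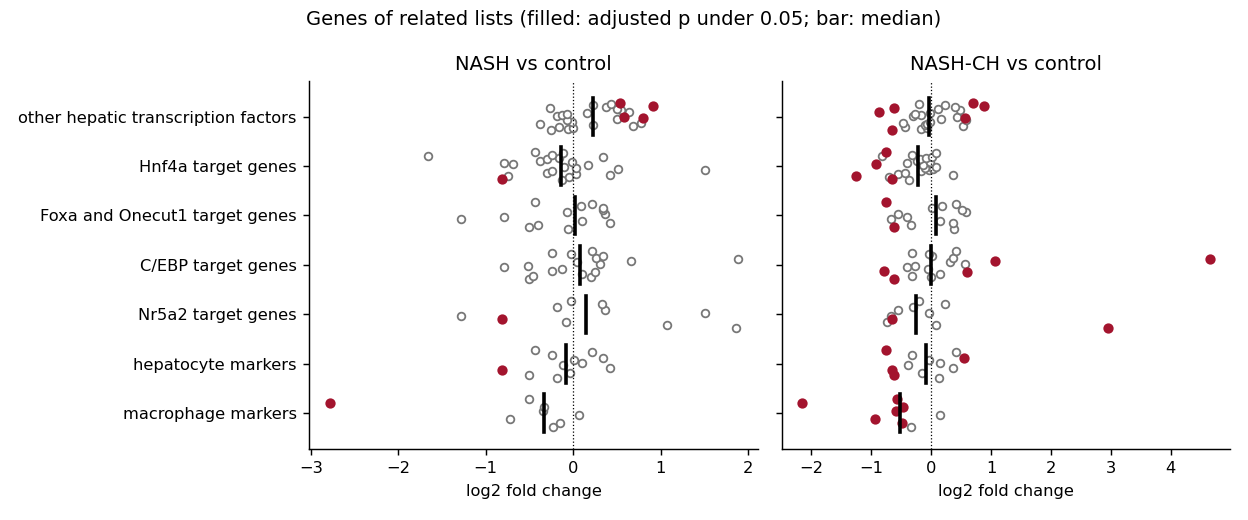
Log2 fold changes of the tested genes of 7 lists in NASH vs. control (left) and NASH-CH vs. control (right), which share the control rats; filled points have an adjusted p below 0.05, and black bars are list medians. Medians of the target lists lie between -0.25 and 0.15, while macrophage markers centre on -0.34 and -0.52.

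Markers of cell types were read for the makeup of the tissue. In NASH-CH vs. control, 17.0% of all tested genes were called. The shares were 33.3% of hepatocyte, 75.0% of macrophage, 33.3% of stellate, 14.3% of cholangiocyte and 12.5% of endothelial markers. In NASH vs. control 3.12% of all tested genes were called, and 8.33% of hepatocyte, 12.5% of macrophage and 11.1% of stellate markers. In NASH-CH vs. NASH these were 4.20% of all tested genes and 33.3% of stellate, 14.3% of cholangiocyte and 12.5% of endothelial markers. Of 12 hepatocyte markers, 1 fell in NASH, and in NASH-CH compared to control 3 fell (Ttr, Apoa1 and Alb) and 1 rose, Hpx (0.54). Ttr, Apoa1 and Alb are also counted in the target lists above, so the hepatocyte and target shares are not separate. The summed level of the 12 hepatocyte markers was 129512 to 174687 CPM in control, 91996 to 144710 in NASH and 74202 to 135535 in NASH-CH livers, overlapping between groups and carried mainly by Alb. Among 8 macrophage markers, Marco fell in NASH (-2.78), and Marco (-2.15), Cd5l (-0.93), Clec4f (-0.58) and Vsig4 (-0.56) led the 6 that fell in NASH-CH. The calls of Clec4f and Vsig4 were lost in 7 and 12 of 18 fits with 1 rat left out. Lower marker RNA is not a lower cell count here, since staining by the authors showed more CD68- and CD163-positive macrophages in NASH-CH than in control. Of 9 tested stellate cell and myofibroblast markers, Lrat fell in NASH (-0.59). In NASH-CH vs. control Col1a1 (1.02) and Des (0.65) rose and Lrat fell (-0.68), and in NASH-CH vs. NASH Col1a1 (1.01), Des (0.56) and Col3a1 (0.49) rose. With 1 rat left out, the calls against NASH were lost in 14 of 18 fits for Col1a1 and Col3a1 and in 3 for Des, the NASH call of Lrat in 5 and the Hpx call in 5. Their summed level was 303 to 412, 282 to 379 and 316 to 473 CPM in control, NASH and NASH-CH.

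Cholangiocytes also express Onecut1 and the forkhead genes. Of 7 tested cholangiocyte markers, Anxa4 rose in NASH-CH vs. control (0.51) and Spp1, osteopontin, in NASH-CH vs. NASH (1.61), and the list summed to 32.2 to 36.1 CPM in control, 29.2 to 38.8 in NASH and 35.4 to 108 in NASH-CH livers. Of 8 tested endothelial markers, Vwf rose in NASH-CH vs. control (1.13) and Stab1 fell in NASH-CH vs. NASH (-0.69). With 1 rat left out, the Spp1 call was lost in 1 of 18 fits (without NASH rat 6), the Stab1 call in 6 and the others in 0. Of 4 tested lymphocyte and neutrophil markers, 0 passed in any comparison. The part of these cells in the values of the factors was not tested.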

How the data were processed

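RNA-Seq of liver tissue was analysed in 18 rats, grouped by the group label of each sample. The authors trimmed adapters, aligned reads to Rnor_6.0 with STAR in 2-pass mode and quantified genes with RSEM on Ensembl annotation, and they deposited expected counts per gene and rat, which are not normalized. The labels name a stranded mRNA kit, but whether counting used strand is not given in the sources used here, so reads of overlapping antisense genes cannot be told apart. The labels and the methods name different RNA extraction kits.

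Expected counts were rounded to whole numbers. Genes kept by filterByExpr (12904 of 32623) were scaled by TMM (edgeR 4.0.16) and fitted with limma 3.58.1 (voom, moderated statistics, R 4.3.3) in 1 model of 18 rats with a mean per group and no covariate, with Benjamini-Hochberg adjustment per comparison. Fold changes are on voom's log2 scale, and log2 CPM for correlations used a prior count of 2. The Cebpb to Cebpa ratio used counts plus 0.5 and exact permutation tests of 6 against 6 rats, which cannot go below p = 0.00216. Correlations used 100000 permutations within groups. The count test was an alternative because the study used limma-voom. edgeR quasi-likelihood and DESeq2 1.42.0 fits, other scalings, filters and weights, a thinned depth, pair-wise fits, a replicate block and fits without single rats were tried, and fits without NASH-CH rats 5 and 6 or without 7SK and SRP genes were added after seeing the data. Scripts were tested on simulated data.

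Members and gene lists were chosen with earlier results of these data known. Named genes were all 9 factors, up to 4 called genes with the largest absolute change per list and comparison, and the 3 most correlated genes per factor. Libraries of 1 group differed beyond sampling noise (lowest chi-square per degree of freedom 28.3). Equal rat numbers were not taken as pairs: deviations of same-numbered rats correlated above 0.1 in 2, 1 and 0 of 6 pairs. The spread between rats includes technical variation, since each rat has 1 library. Promoter sequences are RefSeq's for GRCr8, another build than that of the counts.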

Additional observations from a re-analysis of the deposited data

Results flagged for a closer look

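Outlying rats were sought in 30 sets of 6 rats (9 factors and the Cebpb to Cebpa ratio in 3 groups). In 4 sets, the distance of a rat from the nearest other rat exceeded Dixon's 95% critical value of 0.625 of the whole range. The factors were checked on linear CPM and the ratio on the log2 scale, and each of the 4 was the highest of its set. About 1 in 20 is the rate by chance for normally distributed values in independent sets. These sets share rats, and linear CPM need not be normally distributed, so an excess over chance cannot be read from the 4. Foxa1 stood at 10.3 CPM in NASH-CH rat 6, compared to 2.73 to 4.42 in the other 5 rats. Foxa2 stood at 19.7 CPM in the same rat, compared to 4.92 to 9.37. Foxa3 stood at 59.8 CPM in NASH-CH rat 3, compared to 27.4 to 39.2. Prox1 stood at 122 CPM in control rat 2, compared to 44.7 to 70.0.

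The remaining results restate the comparison of NASH-CH with NASH, which equals the difference between the effects of both models because they share the controls, and add nothing to it. They are the Cebpb log2 fold change of -1.03 (limma-voom) and the difference of -0.55 in the log2 Cebpb to Cebpa ratio.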

How the results depend on the processing

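Both Cebpb calls were kept under every alternative fit, and no factor was called in NASH vs. control under any. Of the alternative values of single factors, 769 kept direction and side of the threshold, 11 newly passed and 30 changed sign, the latter all for values that were not called. In NASH-CH vs. control, 2 factors were called with library size alone, with sample quality weights and with the replicate block, Prox1 being added each time (0.58 with the block, adjusted p = 0.0361). In NASH-CH vs. NASH, 2 were called with DESeq2, without a filter, with quality weights and without NASH-CH rats 5 and 6 (507 genes in all), Foxa1 being added. With 1 rat left out, the number called was 1 to 2 against control (2 without control rat 2) and 1 to 3 against NASH (2 without NASH rat 2, 3 without NASH-CH rat 6). The replicate block left the ratio at -0.429 and -0.548 but no longer past the threshold (exact sign-flip test, adjusted p = 0.0938, smallest raw p possible 0.0312). Apart from adding Prox1 in NASH-CH vs. control, the block changed no call of a factor. Same-numbered rats correlated by 0.052, 0.073 and 0.015 on average.

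Signs changed as follows. Hnf4a in NASH-CH vs. control was 0.0081 with edgeR, 0.0022 with DESeq2, 0.25 with library size alone, 0.0024 with at least 10 counts in every sample, 0.084 with quality weights, 0.15 without NASH-CH rats 5 and 6, and -0.092 to 0.080 with 1 rat left out; in NASH it was 0.096 with library size alone. Foxa3 in NASH-CH vs. control was 0.16 with library size alone, 0.072 without rats 5 and 6 and -0.33 to 0.12 with 1 rat left out. Onecut1 in NASH-CH vs. control was -0.25 with weights and without rats 5 and 6, and -0.13 to 0.55 with 1 rat left out. Nr5a2 in NASH-CH vs. NASH was 0.013, 0.042 and 0.094 with library size alone, weights and without rats 5 and 6, and -0.070 to 0.065 with 1 rat left out. Cebpa in NASH was -0.057 to 0.086 with 1 rat left out. The correlation of Hnf4a with Nr5a2 became -0.062 without the 2 farthest rats and with Onecut1 0.22 with library size alone. The cause was not tested.

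Over all genes, 403, 2192 and 542 were called. NASH vs. control gave 652 (edgeR), 1228 (DESeq2), 865 (library size alone), 268 (no filter), 644 (groups alone), 1509 (weights), 1014 (without rats 5 and 6) and 128 to 982 with 1 rat left out. NASH-CH vs. control gave 5495 (no filter) and 1408 (groups alone), and NASH-CH vs. NASH 949 (DESeq2), 2649 (no filter) and 349 (groups alone). At an adjusted p below 0.01 these were 39, 849 and 239. Calls of list genes were kept in 959 alternative fits and lost in 179, with no change of sign. The lowest count of any factor was 63, for Foxa1.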
